A study of Mus musculus with 6 samples.

Results

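Transcripts of the S100 family of small calcium-binding proteins were compared between mouse glioblastoma (GBM) neurosphere cultures with the genotypes ATRX knockout (ATRX KO) and ATRX wild type (ATRX WT). The genes were taken by name: 8 names were listed, and the 7 that are rows of the table, S100a1, S100a4, S100a6, S100a10, S100a11, S100a13 and S100a16, were analysed, of 13069 genes in all. The eighth, S100b, is not a row and was not analysed here. Of 9 further family names looked up, S100a7a is a row and is described beside the members. Each genotype had 3 libraries, called replicates 1 to 3. Both genotypes came from Sleeping Beauty plasmid tumours with NRAS overexpression and a short hairpin to p53 (shp53), induced by ventricular injection of newborn C57BL/6 or FVB mice. The ATRX KO cultures carry a genotype label of knockout, while the protocol describes a plasmid with a short hairpin to ATRX (shATRX), and which of these applies is not settled by the labels. The strain behind each culture is not given. The titles name line C54B for every ATRX KO library and line C39E for every ATRX WT library, so the effect of genotype cannot be told apart from that of line.

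S100 proteins are small, mostly dimeric proteins that bind calcium through a pair of EF-hand loops, change shape, and then grip a partner protein such as an annexin, a myosin or an enzyme. Some are also released from cells and act on surface receptors. In brain S100b is the astrocyte marker of the family, while S100a4, S100a6, S100a10 and S100a11 are known for their abundance in mesenchymal cells, in motile tumour cells and in reactive glia. Most of the family sits in 1 gene cluster.

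The second EF-hand loop is where the family shares most of its calcium-binding code, and its coding stretch is shown because it sets S100a10 apart from the other members. Each line gives 36 bases of the coding strand from the GENCODE M21 transcripts (GRCm38), with the codons of loop positions 1, 3, 5 and 12, which supply calcium contacts, in capitals.
S100a6: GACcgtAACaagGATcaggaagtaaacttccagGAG
S100a4: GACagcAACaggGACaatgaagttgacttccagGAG
S100a11: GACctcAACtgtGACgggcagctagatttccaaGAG
S100a16: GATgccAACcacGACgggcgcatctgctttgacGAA
S100a13: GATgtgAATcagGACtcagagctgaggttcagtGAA
S100a1: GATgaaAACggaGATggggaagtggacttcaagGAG
S100a7a: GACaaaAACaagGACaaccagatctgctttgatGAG
S100a10: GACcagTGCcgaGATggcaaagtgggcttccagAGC
Codon 12 of the loop was GAG or GAA in the other 6 members and in S100a7a, and AGC in S100a10. Codon 3 was AAC or AAT in those genes and TGC in S100a10, the member known to hold its active shape without calcium. The loops lie at chr3:90614233-90614268 (S100a6), chr3:90605785-90605820 (S100a4), chr3:93526037-93526072 (S100a11), chr3:90542410-90542445 (S100a16), chr3:90524389-90524424 (S100a13), chr3:90511284-90511319 (S100a1), chr3:90657695-90657730 (S100a7a), chr3:93564288-93564323 (S100a10). In all but S100a10 they were found by a sequence pattern that itself asks for glutamate at position 12. At position 3 it asks for aspartate, asparagine or serine. GAG or GAA at codon 12 in those genes was thus set by the search, and codon 3 was limited by it. S100a10 did not match the pattern, and its loop was placed by alignment to S100a4.

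The genes lie on chromosome 3 (GENCODE M21, GRCm38), as 2 groups. From S100a1 (ENSMUSG00000044080.9, 90511034 to 90514392, minus strand) the order is S100a13 (ENSMUSG00000042312.9, 90514435 to 90524581), S100a16 (ENSMUSG00000074457.10, 90537254 to 90543151), S100a4 (ENSMUSG00000001020.8, 90603771 to 90606045), S100a6 (ENSMUSG00000001025.8, 90612882 to 90624181) and S100a7a (ENSMUSG00000063767.4, 90654017 to 90658669), all on the plus strand. S100a11 (ENSMUSG00000027907.4, 93520488 to 93526287) and S100a10 (ENSMUSG00000041959.14, 93555080 to 93564643) follow after a gap of 2.90 Mb from S100a6.

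Over all rows the ATRX KO libraries held 22177228 to 32477269 reads, fewer than the 34966108 to 38039847 of the ATRX WT libraries. The deposited values are log2 RPKM, that is, reads per kilobase of gene scaled for library size. RPKM below is 2 to that value, a small prior count of the authors included. Library size as used there fell below the reads in the table for each ATRX KO library and exceeded them for each ATRX WT library. Atrx itself stood at 14.1, 16.6 and 17.1 RPKM in ATRX KO and 22.3, 22.7 and 21.6 RPKM in ATRX WT, so its transcript was lower but present in every ATRX KO library. The cultures differed in cell type markers as well. Of 14 neural stem and glioma markers 12 were in the table and tested, of which 11 fell in ATRX KO and 1 rose, and their summed level was 188.1 to 195.9 RPKM in ATRX KO against 3350 to 3420 RPKM in ATRX WT. Most of that sum in ATRX WT was Fabp7, at 2757 RPKM, with 247523 reads there and 4 reads over the 3 ATRX KO libraries. Olig1 was at 0 reads in ATRX KO, and Cd44 was the 1 that rose. Sox2 and Nes, outside the naming rule and picked with values in view, had log2 fold changes of -2.02 and -1.69 but were present in ATRX KO at 19.8 and 28.3 RPKM. Gfap is not a row. Of 14 fibroblast and mesenchymal markers 12 were tested, 11 rose, led by Col3a1 and Postn, and Vim fell. Their sum ran from 2750 to 2923 RPKM in ATRX KO and from 1896 to 1948 RPKM in ATRX WT, where Vim alone gave 1868 RPKM. Of 12 neuron, 12 astrocyte and 14 oligodendrocyte lineage markers 10, 9 and 10 are rows. Neuron markers fell in 9 of 9 tested (344.9 to 355.3 RPKM summed over the ATRX WT libraries, 8.83 to 9.56 in ATRX KO, Dcx at 0 reads), astrocyte markers in 7 of 9 (512.2 to 522.6 against 206.6 to 213.4, Mlc1 at 0) and oligodendrocyte markers in 6 of 8 (300.4 to 309.3 against 43.6 to 47.1, Olig1 and Bcas1 at 0). Of 11 pericyte and smooth muscle markers 5 are rows and were tested, and 4 rose. The 1 that fell was the pericyte marker Rgs5, at -8.01, from 19.2 RPKM in ATRX WT (4081 reads) to 0.0753 RPKM in ATRX KO (6 reads). Of 10 endothelial markers 5 are rows and 4 were tested, of which 3 rose and Esam fell (-4.28). Of 13 microglia and macrophage markers only 3 are rows, and those 3 rose, while Ptprc, Aif1 and Csf1r are not rows. The sums of these lists were 52.6 to 56.5, 17.9 to 20.3 and 33.95 to 39.7 RPKM in ATRX KO against 24.6 to 24.8, 4.40 to 4.94 and 6.09 to 6.81 in ATRX WT. In ATRX KO mean log2 RPKM reached 0 for 6 of 12 tested neural stem and 2 of 9 neuron markers. It did so for 5 of 9 astrocyte, 3 of 8 oligodendrocyte, 4 of 5 pericyte and 3 of 4 endothelial markers. In ATRX WT it did so for 4 of 12 fibroblast, 3 of 5 pericyte, 2 of 4 endothelial and 1 of 3 microglia markers. The others passed the filter (log2 RPKM of at least 0 in 3 libraries) mainly through the group where they are high. Their direction was thus largely set by the filter. Of all tested genes 43.6% rose and 45.9% fell. The part of these marker differences in the S100 results was not tested.

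All 7 members differed between the genotypes, 4 higher and 3 lower in ATRX KO. S100a6, S100a11, S100a4 and S100a10 rose, and S100a16, S100a13 and S100a1 fell. The size ran from 99.5-fold higher mean RPKM in ATRX KO for S100a6 to 23.2-fold higher mean RPKM in ATRX WT for S100a16. A rise or fall here means an adjusted p under 0.05 in limma, fitted over the 12201 genes that reached log2 RPKM 0 in 3 or more libraries and adjusted over all of them by Benjamini-Hochberg. That threshold was passed by 89.5% of all tested genes, 43.6% higher and 45.9% lower, so 7 of 7 is near the background and is not a result about the family. The members' sizes and directions are the measurements given here. Their median log2 fold change was 0.92 against -0.02 for all tested genes, and their median absolute log2 fold change 1.74 against 0.68. The members were chosen with earlier results of these data known, so this contrast and the next one describe the list only. When the change was required to exceed log2 1 (limma treat, adjusted p under 0.05), 5 of the 7 passed, S100a4, S100a6, S100a11, S100a13 and S100a16, where 32.6% of all tested genes did. For all 7 the ranges of the genotypes did not overlap, which held for 90.5% of tested genes. All 7 members passed the filter on low values, S100a16 through ATRX WT alone, where it is high, so its calls are given as a description. In bulk RNA such as this, fewer cells of a type and less RNA per cell cannot be told apart.

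**Figure D1:**
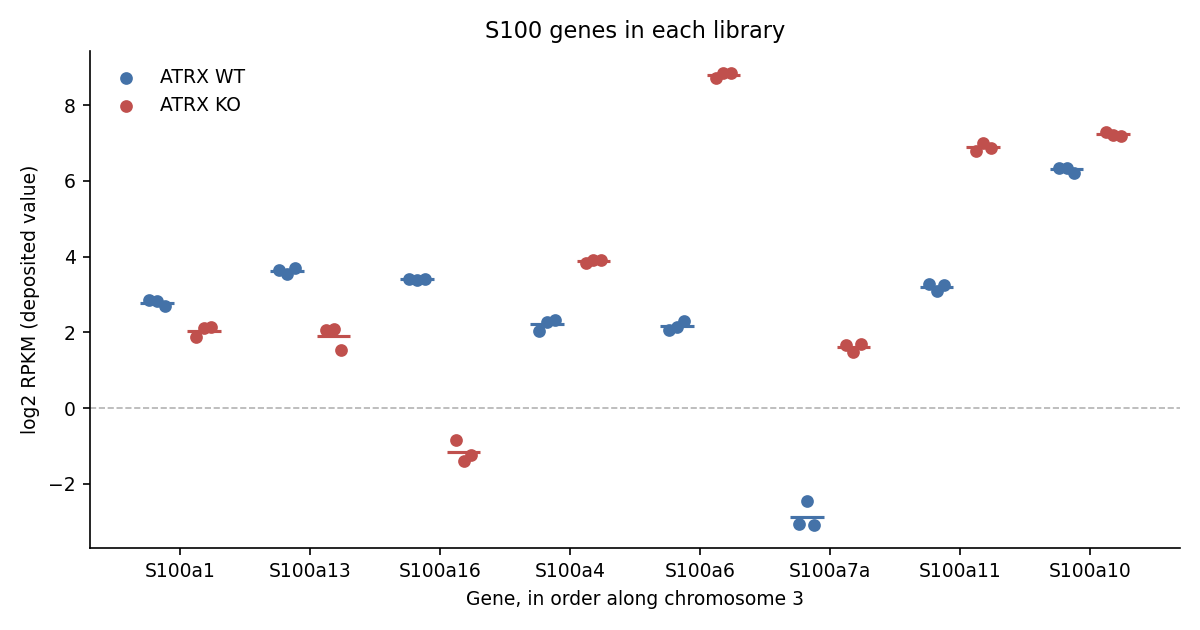
Deposited log2 RPKM of the 7 members and S100a7a in each library (points, with the group mean as a bar; blue ATRX WT, red ATRX KO), in order along chromosome 3; the dashed line marks log2 RPKM 0. No gene's groups overlap, and S100a6 spans the widest distance, from 2.06 to 2.29 in ATRX WT up to 8.73 to 8.84 in ATRX KO.

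S100a6, or calcyclin, a cell-surface and cytoskeletal regulator that binds the ubiquitin ligase adaptor Cacybp and annexin A11, showed the largest difference of the family. ATRX KO replicates 1, 2 and 3 had 424, 457.7 and 456.5 RPKM, and the ATRX WT replicates 4.16, 4.40 and 4.89 RPKM. The ATRX KO libraries were all far above the ATRX WT libraries, with 24643 against 373 reads over the groups. Mean RPKM was 446.1 ± 19.1 in ATRX KO against 4.49 ± 0.371 in ATRX WT (SD, n = 3 each), a log2 fold change of 6.64 (SE 0.0589, limma adjusted p = 4.6e-12). Its absolute fold change lay at the 96.7th percentile of all tested genes. Of its partners, Anxa11, a calcium-dependent membrane binder, rose by 5.67 (SE 0.114, limma adjusted p = 2.8e-10), from 0.457 to 23.1 RPKM, having passed the filter through ATRX KO alone (4.05 with log2(RPKM + 1)). Cacybp, with mean RPKM of 123.7 (ATRX KO) and 116.4 (ATRX WT), gave no call (log2 difference 0.09, limma adjusted p = 0.056), and its direction depended on the setting. It was called lower with library size taken as reads in the table (-0.11, limma adjusted p = 0.024) and after quantile normalization (-0.15, limma adjusted p = 0.009). It was called higher without ATRX KO replicate 1 (0.12, limma adjusted p = 0.0065) and with limma voom on the recovered reads (0.085, adjusted p = 0.032).

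S100a4, also known as metastasin or fibroblast-specific protein, binds the tail of non-muscle myosin IIA and promotes filament disassembly. Its levels were 14.2, 15.0 and 15.0 RPKM in ATRX KO and 4.13, 4.81 and 4.98 RPKM in ATRX WT. Its groups did not overlap, but the distance was far less than for S100a6, which lies 6.8 kb further along the chromosome. S100a4 rose by 1.67 (SE 0.0718, limma adjusted p = 3.2e-08), a 3.17-fold difference in mean RPKM. Its myosin partner Myh9 rose by 1.73 (SE 0.0351, limma adjusted p = 3e-10), from 53.6 to 177.9 RPKM. Of the 42-base words in the annotated transcripts of S100a4, 48.2% are also in the overlapping gene model Gm42674, which is not a row of the table, so reads of that stretch could have been left uncounted and the level of S100a4 is uncertain to that degree.

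S100a10, also called p11, pairs with annexin A2 at the cell membrane, where the complex binds Ahnak and the plasminogen activator tPA (Plat). It was the most abundant member in ATRX WT, at 81.6, 81.2 and 74.5 RPKM, and the next after S100a6 in ATRX KO, at 155.6, 147.1 and 146.5 RPKM. The ATRX KO libraries were higher without overlap. Mean RPKM was 1.89-fold higher in ATRX KO (log2 fold change 0.92, SE 0.0424, limma adjusted p = 5.1e-08), a smaller change than those of Anxa2 and Ahnak. Anxa2 rose by 3.91 (SE 0.0295, limma adjusted p = 3e-12), from 33.6 to 504.4 RPKM, and the giant scaffold Ahnak rose by 6.02 (SE 0.0639, limma adjusted p = 1.1e-11), from 0.423 to 27.5 RPKM. Ahnak too passed the filter through ATRX KO alone, and its log2 fold change was 4.33 with log2(RPKM + 1). The RPKM ratio of S100a10 to Anxa2 was therefore 0.306, 0.284 and 0.300 in ATRX KO and 2.4, 2.45 and 2.21 in ATRX WT. In ATRX WT the S100a10 level exceeded that of Anxa2, and in ATRX KO Anxa2 exceeded S100a10, in every library. Plat fell by 0.29, from 91.2 to 74.4 RPKM, while the urokinase receptor Plaur, which acts in the same proteolytic system and was named after its value was seen, rose by 3.84 (limma adjusted p = 7e-12).

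S100a11, which binds annexin A1 and takes part in membrane repair and growth control, stood at 110.8, 126.8 and 116.9 RPKM in ATRX KO and 9.70, 8.57 and 9.48 RPKM in ATRX WT. The groups were well apart, with 4580 against 541 reads. The log2 fold change was 3.68 (SE 0.0603, limma adjusted p = 9.2e-11), or 12.8-fold in mean RPKM. Anxa1 rose too, by 1.90 (SE 0.0418, limma adjusted p = 4.7e-10), so that the RPKM ratio of S100a11 to Anxa1 went from 0.0721 ± 0.00622 in ATRX WT to 0.246 ± 0.00757 in ATRX KO (SD, n = 3 each). For S100a11, unlike S100a10, the member moved further than its annexin. Processed pseudogenes, none of them a row of the table, share 43.6% of the 42-base words of S100a11 transcripts, so part of its reads could map to more than 1 place and its level is uncertain to that degree.

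S100a16, a widely expressed member linked to fat cell formation, was the largest fall of the family. It stood at 10.6, 10.4 and 10.5 RPKM in ATRX WT and at 0.556, 0.382 and 0.421 RPKM in ATRX KO. ATRX WT libraries had 420, 447 and 440 reads and ATRX KO libraries 16, 9 and 8, so the ATRX KO level rests on few reads. S100a16 passed the filter on low values through ATRX WT alone, where it is high. Its fitted log2 fold change of -4.56 (SE 0.130, limma adjusted p = 2.3e-09) is therefore given as a description. From group totals of reads divided by library size, ATRX WT was 26.0-fold higher, with a 95% interval of 18.4 to 37.9 that covers counting error only. With log2(RPKM + 1) the difference was smaller, -2.99, since that pseudocount is larger than the ATRX KO level.

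S100a13, which assists export of the growth factor Fgf1 by a route that bypasses the secretory pathway, stood at 12.5, 11.7 and 12.96 RPKM in the ATRX WT libraries and 4.15, 4.25 and 2.92 RPKM in ATRX KO. ATRX KO replicate 3 was the lowest, with 42 reads (exact Poisson 95% interval 30.3 to 56.8), yet all ATRX KO libraries lay below all ATRX WT libraries. The log2 fold change was -1.74 (SE 0.133, limma adjusted p = 1.8e-06), and -1.56 without that library. Its cargo Fgf1 rose by 0.35 (SE 0.0527, limma adjusted p = 0.00022), from 8.03 to 10.2 RPKM. Syt1, another part of the same export complex, was below the filter, with 52 ATRX KO reads and 211 ATRX WT reads.

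S100a1, known from heart muscle, where it tunes the calcium channel Ryr2 and the pump Atp2a2, had the smallest change. It stood at 7.17, 7.15 and 6.42 RPKM in ATRX WT and 3.70, 4.32 and 4.41 RPKM in ATRX KO. The highest ATRX KO library was below the lowest ATRX WT library. The log2 fold change was -0.74 (SE 0.0808, limma adjusted p = 2.2e-05), which left 60.0% of the ATRX WT mean. Atp2a2 rose by 0.33, from 97.8 to 122.8 RPKM, and Ryr2 was below the filter, with 2 ATRX KO reads and 462 ATRX WT reads. S100a1 and S100a13 start 43 bases apart on opposite strands and both fell. Their annotated gene models do not overlap.

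S100a7a, the mouse counterpart of psoriasin and a skin protein, is not among the listed members. It had 69, 53 and 48 reads in ATRX KO and 1, 3 and 1 in ATRX WT. In RPKM the range was 2.82 to 3.21 for ATRX KO against 0.117 to 0.183 for ATRX WT, without overlap. It passed the filter on low values through ATRX KO alone, where it is high, so its fitted log2 fold change of 4.48 (SE 0.181, limma adjusted p = 2.1e-08) is given as a description. Scaled by library size, the ratio of group read totals was 51.9, with a 95% counting interval of 21.8 to 162. With log2(RPKM + 1) the log2 fold change was 1.83. Of the 42-base words in its transcripts 6.97% are shared with other genes.

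**Figure D2:**
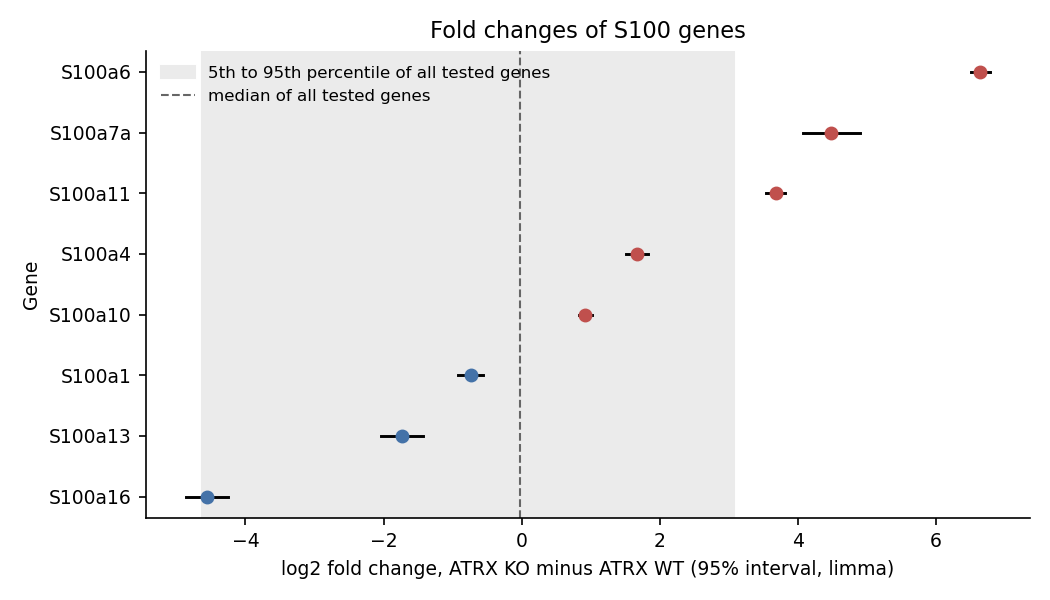
Log2 fold change (ATRX KO minus ATRX WT, deposited log2 RPKM) of the 7 members and S100a7a, with 95% intervals from limma as black lines (red points higher and blue points lower in ATRX KO); the grey band runs from the 5th percentile (-4.63) to the 95th percentile (3.08) of all tested genes and the dashed line is their median (-0.02). S100a6, S100a7a and S100a11 lie beyond the band on the right, and S100a16 lies near its left edge at -4.56.

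The pool of S100 transcripts was larger in ATRX KO and made up differently. Summed over the 8 S100 rows, the level was 716.1, 758.4 and 745.8 RPKM in ATRX KO and 130.0, 128.5 and 123.8 RPKM in ATRX WT, means of 740.1 ± 21.7 and 127.5 ± 3.25 (SD, n = 3 each), a 5.81-fold difference. S100a6 made up 60.3% ± 1.00 of the pool in ATRX KO and 3.53% ± 0.385 in ATRX WT (SD, n = 3 each). S100a10 made up 20.3% ± 1.29 in ATRX KO and 62.0% ± 1.67 in ATRX WT. S100a11 took 16% ± 0.674 and 7.26% ± 0.521, in the same order. S100a13, S100a16 and S100a1 held 9.75%, 8.26% and 5.42% of the ATRX WT pool and under 1% each of the ATRX KO pool.

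**Figure D3:**
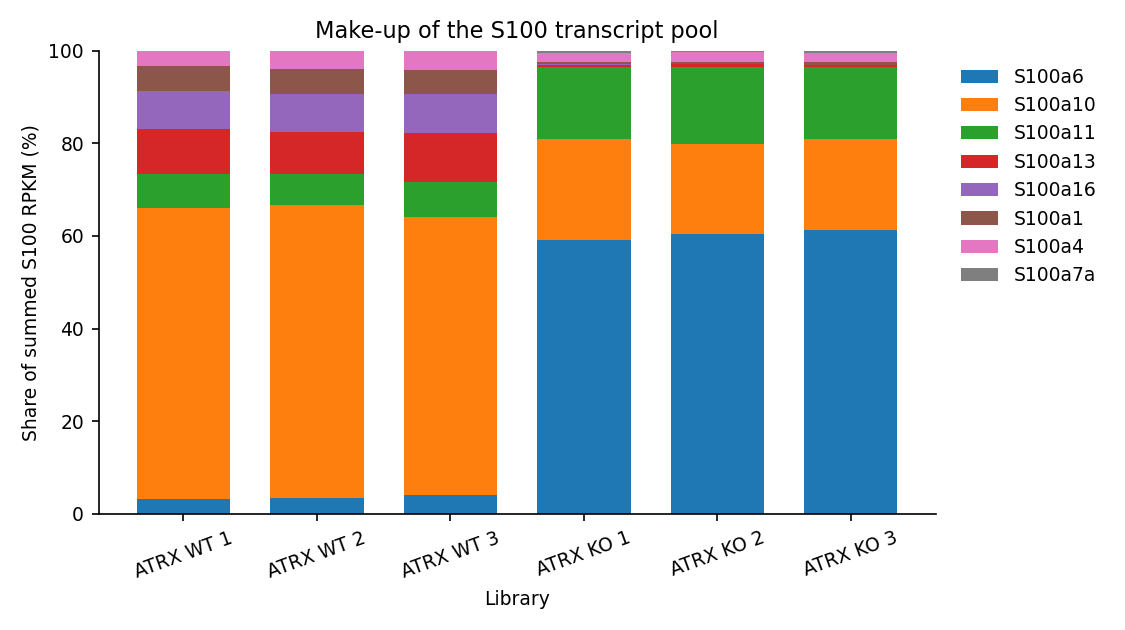
Share of each gene in the summed RPKM of the 8 S100 rows, 1 stacked bar per library (percent). S100a10 is the main part of every ATRX WT bar (60.1% to 63.2%) and S100a6 of every ATRX KO bar (59.2% to 61.2%).

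Ranked by RPKM, which is per length, the order in ATRX KO was S100a6, S100a10, S100a11, S100a4, S100a1, S100a13, S100a7a and S100a16. In ATRX WT it was S100a10, S100a13, S100a16, S100a11, S100a1, S100a4, S100a6 and S100a7a. Neighbours whose ranges over 3 libraries overlapped were S100a1 with S100a13 and S100a13 with S100a7a in ATRX KO, and S100a4 with S100a6 in ATRX WT. Other neighbours in the order were separate. S100a6 and S100a4 thus stood at like levels in ATRX WT (RPKM ratio 0.969 ± 0.049) and far apart in ATRX KO (30.3 ± 0.361, SD, n = 3 each).

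Among the S100 genes that are rows, the falls and rises were not mixed along the chromosome. S100a14, S100a3 and S100a5 also lie within the first group but are not rows, so their direction is not known here. The members S100a1, S100a13 and S100a16, at one end of the first group, fell, and S100a4 and S100a6, at the other end, rose, as S100a7a was higher, with 113.1 kb from S100a1 to the end of S100a6 and S100a7a 29.8 kb beyond. The turn lies in the 60.6 kb between S100a16 and S100a4, whose log2 fold changes differ by 6.23, with no tested gene between them. S100a11 and S100a10, in the far group, both rose, by amounts that differ by 2.75. Of the 27 other tested genes within 1 Mb of a member 11 rose, 11 fell and 5 had no call. Their median log2 fold change was -0.03 and their median absolute log2 fold change 0.45. The range ran from -7.34 to 1.13, with 2 genes beyond log2 2, She at -7.34 and Chrnb2 at -3.94. Near the first group all of these other genes start before S100a1, so none lies beyond S100a7a there. The nearest of the 27, the mRNA export factor Chtop, fell by 0.09 (limma adjusted p = 0.0067), and the next, Snapin and Ilf2, gave no call at -0.02 and -0.03. She, Chrnb2, Chtop, Snapin and Ilf2 were named after their values were seen.

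**Figure D4:**
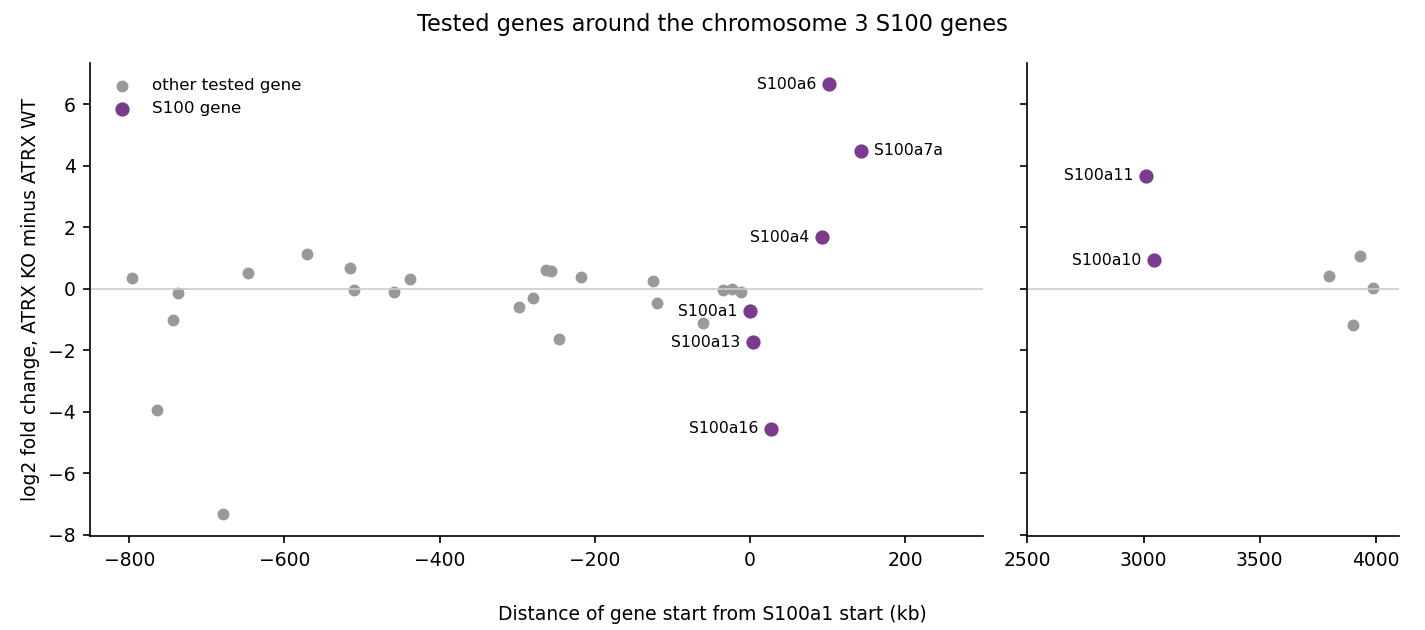
Log2 fold change (ATRX KO minus ATRX WT) of tested genes within 1 Mb of a member against the distance of their start from that of S100a1 in kb, for the S100a1 to S100a7a stretch (left) and the S100a11 and S100a10 stretch (right); purple points are S100 genes and grey points other genes. The grey points spread from -7.34 to 1.13, the 3 nearest S100a1 sit between -0.09 and -0.02, and the S100 points spread from -4.56 to 6.64.

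RefSeq windows of 300 bases that span the gene start (GRCm38.p6) were matched for 6 of the 7 members, and those of 4 are shown because S100a6, S100a11 and S100a4 rose together while S100a16, which has 2 annotated starts, fell. The coding strand is given 5′ to 3′ for S100a6 at chr3:90612644-90612943, S100a11 at chr3:93520246-93520545, S100a4 at chr3:90603520-90603819, S100a16 start 1 at chr3:90537004-90537303, S100a16 start 2 at chr3:90540896-90541195 (plus strand), with motif matches on either strand in capitals. The 7 motifs searched were TGANTCA for the AP-1 family, TATAAA for the core promoter box, GGGCGG for the GC box, CCAAT for the NF-Y box, CACGTG for the E box, AACAAT for SOX factors and GGAATG for TEAD factors, and no match in these windows overlapped another.
S100a6: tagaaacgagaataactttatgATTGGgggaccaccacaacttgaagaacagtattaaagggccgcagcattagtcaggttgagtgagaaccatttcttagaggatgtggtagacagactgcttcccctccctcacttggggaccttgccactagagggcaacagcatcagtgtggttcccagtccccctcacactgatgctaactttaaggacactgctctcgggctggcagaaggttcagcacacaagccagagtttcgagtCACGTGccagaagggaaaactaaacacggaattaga
S100a11: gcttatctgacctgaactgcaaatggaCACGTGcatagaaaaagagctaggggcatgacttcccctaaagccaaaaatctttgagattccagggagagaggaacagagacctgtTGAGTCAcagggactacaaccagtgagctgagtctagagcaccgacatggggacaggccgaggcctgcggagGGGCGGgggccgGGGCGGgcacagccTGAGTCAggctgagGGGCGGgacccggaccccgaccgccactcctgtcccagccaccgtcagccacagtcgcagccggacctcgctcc
S100a4: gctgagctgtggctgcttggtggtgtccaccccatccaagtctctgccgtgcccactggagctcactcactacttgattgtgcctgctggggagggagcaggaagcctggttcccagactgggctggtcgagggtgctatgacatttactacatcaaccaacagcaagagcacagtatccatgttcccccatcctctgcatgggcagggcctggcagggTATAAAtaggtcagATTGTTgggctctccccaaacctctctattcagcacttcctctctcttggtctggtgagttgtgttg
S100a16 start 1: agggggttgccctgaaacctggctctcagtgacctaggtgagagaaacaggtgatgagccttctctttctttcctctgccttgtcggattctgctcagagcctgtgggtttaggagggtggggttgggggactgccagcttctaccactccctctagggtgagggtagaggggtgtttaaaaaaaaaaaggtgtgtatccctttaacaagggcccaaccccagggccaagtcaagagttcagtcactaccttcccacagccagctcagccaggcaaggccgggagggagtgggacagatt
S100a16 start 2: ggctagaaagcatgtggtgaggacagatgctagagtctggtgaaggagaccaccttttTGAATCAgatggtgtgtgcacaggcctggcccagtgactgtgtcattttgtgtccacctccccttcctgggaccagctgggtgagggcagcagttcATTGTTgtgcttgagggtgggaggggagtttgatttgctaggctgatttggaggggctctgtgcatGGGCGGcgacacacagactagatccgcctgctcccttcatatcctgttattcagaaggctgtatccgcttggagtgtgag
The window of S100a11 held TGANTCA at 2 places, GGGCGG at 3 and CACGTG at 1. That of S100a4 held TATAAA, 31 bases before the start, and AACAAT. The window of S100a6 held CCAAT on the reverse strand and CACGTG, so S100a6 and S100a11 both held the E box letters and S100a4 did not. The first window of S100a16 held none of the 7, and its second held the letters of the AP-1, GC box and SOX motifs, each at 1 place. TGANTCA and GGGCGG were thus in windows of both a rising and the falling member shown. Among all 32851 windows of this length 7.81% held TGANTCA, 35.7% GGGCGG, 13.6% TATAAA, 37.4% CCAAT, 7.15% CACGTG, 10.7% AACAAT and 14.7% GGAATG. The windows of S100a1 and S100a13 share 204 bases and held none of the 7, and that of S100a7a held GGAATG at 3 places. These matches describe letters in the windows and say nothing of factor binding.

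Annexins, the main partner family, were mostly higher in ATRX KO. Of 12 listed, 9 were in the table and tested, 8 rose and 1 fell, where 43.6% of all tested genes rose and 45.9% fell. Their median log2 fold change was 2.07 against -0.02 for all tested genes. The annexin list, like the other gene lists, was chosen with earlier results of these data known, so this contrast is a description. Mean log2 RPKM was at least 0 for all 9 in ATRX KO and for 7 in ATRX WT. The largest rises were Anxa11 and Anxa2, and the fall was Anxa6, an annexin of endosomes and membrane microdomains, at -1.23 (SE 0.0437, limma adjusted p = 9.1e-09). The list of annexins and that of other partners share Anxa1, Anxa2, Anxa6 and Anxa11.

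Of 32 known binding partners and receptors, 30 were in the table and 25 tested, of which 17 rose, 6 fell and 2 had no call, so 23 of 25 were called where 89.5% of all tested genes were. Their median log2 fold change was 0.64 against -0.02 for all tested genes, of which 43.6% rose and 45.9% fell. Mean log2 RPKM was at least 0 for all 25 in ATRX KO and for 23 in ATRX WT. With library size taken as reads in the table, the counts were 16 rises and 9 falls, since Sdcbp, counted among the rises at 0.10, went to -0.10 (limma adjusted p = 0.0088) and Cacybp and Hltf were called lower, Hltf at -0.28 (limma adjusted p = 0.00089). After quantile normalization 16 rose and 8 fell. Trp53, among the falls, lost its call without ATRX KO replicate 3 or without ATRX WT replicate 3 (limma adjusted p = 0.063 each). The largest rises were Ahnak and Anxa11 and the largest falls Anxa6 and Plat. Stk38, a kinase that S100b binds, fell by 0.12 (limma adjusted p = 0.0093). Ager, which encodes RAGE, a receptor for released S100 proteins, was below the filter, with mean RPKM of 0.943 (ATRX KO, 119 reads) and 0.983 (ATRX WT, 190 reads).

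**Figure D5:**
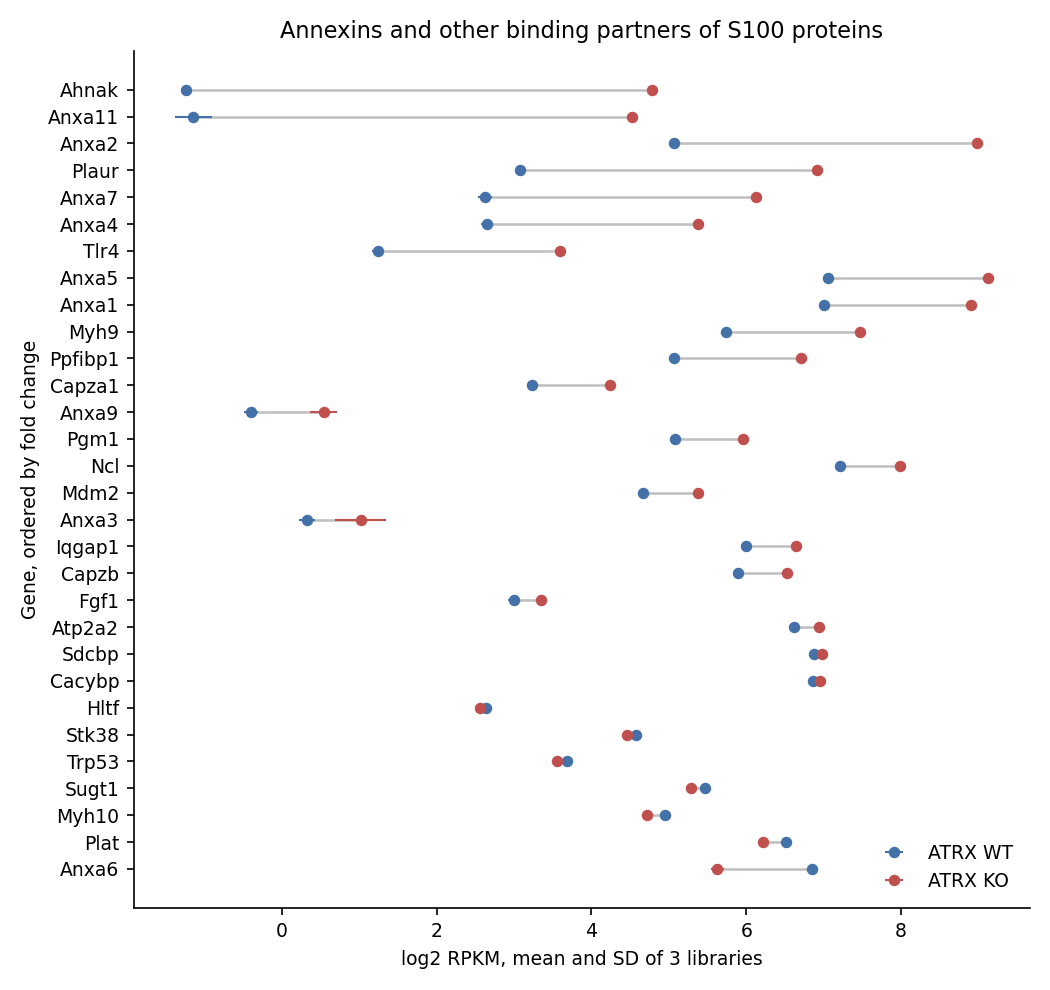
Mean log2 RPKM with SD over 3 libraries (blue ATRX WT, red ATRX KO) of the 30 tested annexins and other binding partners, ordered by fold change. Ahnak, Anxa11 and Anxa2 at the top have the largest rises (6.02, 5.67 and 3.91) and Anxa6 at the bottom the largest fall (-1.23).

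Calcium sensors and buffers outside the family went both ways. Of 37 listed EF-hand genes 30 were in the table and 29 tested. Of these 11 rose, 15 fell and 3 had no call, so 26 of 29 were called where 89.5% of all tested genes were. Mean log2 RPKM was at least 0 for 29 in ATRX WT and for 25 in ATRX KO. Their median log2 fold change was -0.12 against -0.02 for all tested genes, of which 43.6% rose and 45.9% fell. With library size taken as reads in the table, the counts were 10 rises and 18 falls, since Chp1 (-0.18), Rcn2 (-0.13) and Hpcal1 (-0.25) were called lower and Cib1 lost its rise (0.12, limma adjusted p = 0.16). After quantile normalization 11 rose and 18 fell. The largest rises were Rcn3, a secretory pathway calcium binder (2.68), and Nucb2 (1.67). The largest falls were the neuronal sensors Ncald (-9.25, 22 against 24464 reads) and Hpca (-5.80, 7 against 813 reads). Ncald and Hpca passed the filter through ATRX WT alone, and with log2(RPKM + 1) their log2 fold changes were -5.59 and -2.15. Summed RPKM of the 30 genes ran from 2042 to 2081 over the ATRX KO libraries and from 2006 to 2022 over the ATRX WT libraries, ranges that lie next to each other without overlap, while the S100 sum differed 5.81-fold.

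Other genes with patterns most like a member's were found by the root mean square difference over the 6 libraries of log2 RPKM values centred on each gene's mean. For S100a6 they were Shox2 (0.0737) and Adcy2 (0.0844), for S100a11 Nmnat3 (0.0438) and Tns2 (0.0642), and for S100a4 Syde2 (0.0265) and Npepl1 (0.0394). For S100a10 they were Gpc6 (0.0257) and Slc41a2 (0.0271). For S100a16 they were Hddc3 (0.0603) and the neural stem marker Prom1 (0.064), for S100a13 Fignl2 (0.0914) and Fn3krp (0.0958), and for S100a1 Asb3 (0.0196) and Pcmtd1 (0.027). With 2 groups of 3 libraries, this likeness mostly matches the size of the difference between the groups.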

How the data were processed

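The members and gene lists were chosen with earlier results of these data known. The authors deposited log2 RPKM values for 13069 genes in 6 libraries. The submitters' processing notes list STAR 2.5.3a, HTSeq 0.11.2, edgeR 3.20.9, FastQC and Trim Galore, and name both mm9 and mm10 without a role. Whole reads and gene lengths were recovered from the value steps for 100% of genes (tolerance 1e-05 reads), with a prior count that averaged 2 reads. Genes reaching log2 RPKM 0 in 3 or more libraries were kept (12201, 868 left out) and fitted with limma 3.58.1 in R 4.3.3 (empirical Bayes with trend, two-sided, Benjamini-Hochberg over all tested genes, threshold 0.05, and treat against log2 1). On simulated reads for 11833 genes the fit recovered 48 of 49 genes changed by log2 0.5 and all changed by 1, 2 or 4, with 16 of 214 calls false. That simulation changed few genes, evenly both ways, with a fixed spread between libraries. Its rates do not carry over to the data, where 89.5% of tested genes were called. Read intervals are exact and cover counting error only. All libraries of a genotype share 1 line, so p-values reflect only how these libraries vary, possibly for technical reasons. Named genes were all members and family rows, fixed partners, up to 2 largest rises and falls per list, and the 2 most alike genes per member. Coordinates and transcripts are from GENCODE M21 and start windows from RefSeq. Alternatives covered the filter, pseudocount, scaling, trend, replicate block, left-out libraries and limma voom.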

Additional observations from a re-analysis of the deposited data

How the results depend on the processing

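The direction and the call of all 7 members were the same under all 14 alternatives tried (98 of 98 comparisons). These were no filter, a filter of log2 RPKM 2, log2(RPKM + 1), library size as reads in the table, quantile normalization, no trend, the replicate block, each library left out in turn, and limma voom on the recovered reads, the last chosen after seeing the data. The log2 fold change ranged from 6.35 to 6.70 for S100a6, 3.48 to 3.72 for S100a11, 1.48 to 1.75 for S100a4, 0.70 to 0.95 for S100a10, -0.93 to -0.58 for S100a1, -1.93 to -1.50 for S100a13 and -4.74 to -2.99 for S100a16. The highest adjusted p of any member was 0.00033, for S100a1. The number of genes lower beyond log2 1 was 1397 under the filter of log2 RPKM 2, against 2100, with fewer genes tested. Scaling by reads in the table moved the median of all tested genes by -0.20 and gave 4388 genes higher and 6689 lower, against 5321 and 5604. With it Cacybp went to -0.11, Sdcbp to -0.10, Chp1 to -0.18 and Rcn2 to -0.13, each the other way, and with quantile normalization these went to -0.15, -0.13, -0.12 and -0.10 and Hltf to 0.041. The library size behind the deposited values is not the number of reads in the table. Its ratio to those reads was 0.932, 0.935 and 0.935 for ATRX KO replicates 1, 2 and 3. For the same replicate numbers of ATRX WT the ratio was 1.073, 1.068 and 1.071. Every fold change from the deposited values includes this scaling. Why the ratio differs between the genotypes, and why quantile normalization moved these genes, was not tested. With the replicate number as a block 5287 genes were higher and 5564 lower, and the members' calls did not change. Same-numbered libraries had correlations of deviations of -0.05, 0.05 and -0.04, not every library correlated best with its own number, and the labels give no shared source, so the numbers do not pair the libraries. The planned edgeR and DESeq2 tests were not run, a choice made because the deposited unit is log2 RPKM. Whole reads had been recovered, so the unit alone did not prevent them. Limma voom was the only count-based fit made. Depth limits S100a16 in ATRX KO and S100a7a in ATRX WT, with 33 and 5 reads.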

Other observations

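The coding sequences of the S100 rows are far from identical, which bears on how reads divide among them. The closest pair was S100a4 and S100a6, with 60.1% identical bases of the longer sequence, and these neighbours differed in log2 fold change by 4.97. The lowest value by this measure was that of S100a6 and S100a13, with 35.2%, which their unequal coding lengths (267 and 480 bases) hold down. Over aligned bases alone, S100a6 and S100a13 had 169 identical of 254, and S100a4 and S100a6 had 182 of 264. No 42-base word of S100a1, S100a6, S100a10, S100a13 or S100a16 transcripts was found in transcripts of another gene in GENCODE M21.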
